A study of Mus musculus with 9 samples.

Results

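Peaks at transcription termination sites (TTSs) are the open chromatin intervals whose annotated class is TTS in the 9 deposited peak lists of mouse brain endothelial cells (ECs). A peak holds this class when its centre lies between 100 bp before and 1000 bp after the annotated end of a transcript and does not lie in the promoter window of another. The class was carried by 3257 of 253457 peaks (1.29%). The libraries came from Omni-ATAC-seq, in which the transposase Tn5 cuts and tags accessible DNA, on nuclei of sorted ECs. All mice carried the CDH5-CreERT2 driver, an EC-restricted Cre recombinase that tamoxifen activates, and the study states that controls were treated in the same way. EC-K4KO mice also carried floxed Klf4, which encodes a zinc finger transcription factor of ECs, and WT Cre mice kept Klf4 intact. The groups were young WT Cre (n = 2), young EC-K4KO (n = 3), old WT Cre (n = 2) and old EC-K4KO (n = 2), and the labels give age only as young or old. The design asks how accessibility differs with loss of EC Klf4 and with age.

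RNA polymerase II transcribes past the end of a gene's last exon, where the nascent RNA is cut after a polyadenylation signal and a tail is added, before the polymerase leaves the template. Accessible chromatin just past a gene's end may thus be crossed by the polymerase, and it can hold enhancers, insulators or the promoter of a neighbouring gene. Mouse genes are often packed closely, so that the end of one lies within a short distance of the start of the next.

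The lists differed in length by group. Young WT Cre lists held 6157 and 9598 peaks, and the other 7 held from 23848 to 45026. No read totals were analysed, which leaves sequencing depth unknown, and errors given here are the spread between libraries only. The names of the libraries hold one prefix for all young and another for all old libraries, so age and any batch that the prefix marks cannot be told apart. The sources do not say how many mice each library holds, so p-values measure the spread between these libraries. In bulk libraries, fewer cells with an open site and less opening per cell cannot be told apart. Of 12 endothelial marker genes, from 7 to 10 had a promoter-TSS peak in each library, while no microglial marker of 6 had one in any library. Promoter-TSS peaks were found for 0 to 4 of 8 pericyte and mural genes, 0 to 2 of 6 astrocyte genes, 0 to 2 of 6 neuron genes, 0 to 1 of 6 oligodendrocyte genes and 0 to 1 of 6 erythroid genes, and all 5 of these lists were at 0 in both young WT Cre libraries.

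Windows of 300 bp from 7 regions are printed to show what open DNA past a gene's end looked like. Each is centred on the part shared by the region's TTS peaks, holds no exon of GENCODE M21 or RefSeq, and is read 5′ to 3′ on the strand of the gene that ends there, from RefSeq's GRCm38 sequence. Capitals mark matches to the patterns AATAAA (the polyadenylation signal), GGGNGTGG (KLF factors), CCGGAAGT (ETS factors), TGANTCA (AP-1) and CTCF, on either strand. The first 4 windows come from regions with a TTS peak in all 9 libraries, and the last 3 from regions with one in each of the 7 libraries outside young WT Cre and no peak of any class in that group.
Tmem88b, chr4:155780969-155781268, minus strand: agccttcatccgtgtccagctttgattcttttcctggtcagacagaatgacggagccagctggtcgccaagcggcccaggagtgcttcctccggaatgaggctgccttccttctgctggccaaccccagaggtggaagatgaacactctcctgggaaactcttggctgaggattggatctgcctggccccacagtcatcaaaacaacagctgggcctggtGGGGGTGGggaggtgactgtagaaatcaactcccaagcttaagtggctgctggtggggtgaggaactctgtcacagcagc
Ctdsp1, chr1:74397383-74397682, plus strand: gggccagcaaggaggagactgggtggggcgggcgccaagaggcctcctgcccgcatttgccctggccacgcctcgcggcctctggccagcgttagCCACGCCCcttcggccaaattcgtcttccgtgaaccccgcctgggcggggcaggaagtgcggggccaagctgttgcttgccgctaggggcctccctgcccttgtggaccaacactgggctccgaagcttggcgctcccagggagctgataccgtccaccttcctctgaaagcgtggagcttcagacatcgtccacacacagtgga
Slc23a3, chr1:75124823-75125122, minus strand: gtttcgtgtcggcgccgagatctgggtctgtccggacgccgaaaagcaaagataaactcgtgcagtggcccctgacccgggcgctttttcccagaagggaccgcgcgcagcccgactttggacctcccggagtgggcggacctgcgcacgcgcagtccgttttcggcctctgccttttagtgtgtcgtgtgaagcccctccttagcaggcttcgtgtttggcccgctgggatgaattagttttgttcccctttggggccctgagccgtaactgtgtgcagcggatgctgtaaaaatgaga
Sec14l2, chr11:4096591-4096890, minus strand: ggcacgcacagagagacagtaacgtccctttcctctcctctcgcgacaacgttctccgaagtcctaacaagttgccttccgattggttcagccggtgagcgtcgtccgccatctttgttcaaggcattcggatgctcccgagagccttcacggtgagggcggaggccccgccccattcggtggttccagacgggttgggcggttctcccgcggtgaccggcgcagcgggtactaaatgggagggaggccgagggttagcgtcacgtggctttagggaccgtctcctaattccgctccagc
Sfn, chr4:133599663-133599962, minus strand: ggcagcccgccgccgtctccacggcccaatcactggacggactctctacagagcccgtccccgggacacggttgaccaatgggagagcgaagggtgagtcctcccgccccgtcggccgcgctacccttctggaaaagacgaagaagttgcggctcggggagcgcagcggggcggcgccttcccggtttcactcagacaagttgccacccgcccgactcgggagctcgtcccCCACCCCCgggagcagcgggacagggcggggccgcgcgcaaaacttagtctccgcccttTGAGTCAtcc
Ube3b, chr5:114421912-114422211, plus strand: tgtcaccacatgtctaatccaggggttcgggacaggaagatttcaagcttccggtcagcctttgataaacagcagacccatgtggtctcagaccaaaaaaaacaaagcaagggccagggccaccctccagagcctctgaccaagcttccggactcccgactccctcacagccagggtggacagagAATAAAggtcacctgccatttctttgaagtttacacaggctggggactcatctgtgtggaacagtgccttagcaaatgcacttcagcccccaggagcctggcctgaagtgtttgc
Skap1, chr11:96760147-96760446, plus strand: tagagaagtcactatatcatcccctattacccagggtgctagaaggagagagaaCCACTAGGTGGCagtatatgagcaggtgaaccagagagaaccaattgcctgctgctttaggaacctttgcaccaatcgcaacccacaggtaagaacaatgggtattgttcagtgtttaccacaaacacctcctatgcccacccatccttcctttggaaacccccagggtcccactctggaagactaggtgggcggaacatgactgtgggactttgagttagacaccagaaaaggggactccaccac

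The Tmem88b and Ctdsp1 windows each held 1 KLF match, at bases 221 and 96 of the window. The Sfn window held 1 KLF match at base 232 and 1 AP-1 match at base 291. The Skap1 window held 1 CTCF match at base 55, and the Ube3b window held 1 AATAAA match at base 186. These letters were not found in the Slc23a3 and Sec14l2 windows, which held 26 and 29 CpG dinucleotides against 5 in the Tmem88b window and 2 in the Skap1 window. GC content was 53.3% at Ube3b and 68.7% at Sfn.

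More TTS peaks were called in EC-K4KO than in WT Cre lists of the same age, and more in old than in young lists of the same genotype. Young WT Cre libraries held 62 and 94 TTS peaks, and young EC-K4KO libraries held 231, 313 and 357. Old WT Cre libraries held 493 and 473, and old EC-K4KO libraries held 656 and 578. No value of one group overlapped those of the next. EC-K4KO lists exceeded WT Cre lists by 178 TTS peaks on average over the ages, with all 5 EC-K4KO libraries above every WT Cre library of their age, and old lists exceeded young ones by 361, with all 4 old libraries above every young library of their genotype. Both differences had an exact permutation p = 0.0167, the smallest that 60 arrangements within age or genotype can give, and an adjusted p = 0.0556 over 10 tests, which misses the threshold of 0.05.

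The number of TTS peaks rose with list length over the young libraries and within each genotype of the old ones, but not across the old genotypes. Old WT Cre 1 held 493 among 43893 peaks, and old EC-K4KO 2 held 578 among 39079. TTS peaks made up 1.01% and 0.979% of the young WT Cre lists and 0.969%, 1.24% and 1.28% of the young EC-K4KO lists. The share was 1.12% and 1.45% in old WT Cre and 1.46% and 1.48% in old EC-K4KO lists. Young and old EC-K4KO shares did not overlap, nor did young and old WT Cre shares. The old lists exceeded the young by 0.301 percentage points (exact permutation p = 0.0167, adjusted p = 0.0556), and the EC-K4KO lists exceeded the WT Cre lists by 0.174 points (exact permutation p = 0.15, adjusted p = 0.300). Taken as a share of peaks that are not promoter-TSS, the direction turned, to -0.0691 points for age (exact permutation p = 0.867) and -0.141 points for genotype (exact permutation p = 0.450).

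Among the 6157 strongest peaks of each library, the length of the shortest list, young EC-K4KO held the most TTS peaks and the other groups overlapped. Lists cut to this length held 62 and 54 TTS peaks in young WT Cre, 65, 64 and 68 in young EC-K4KO, 63 and 60 in old WT Cre, and 56 and 60 in old EC-K4KO. Shares ran from 0.877% to 1.10%. The genotype difference was 0.0338 points (exact permutation p = 0.55) and the age difference -0.0338 points (exact permutation p = 0.517), with an adjusted p = 0.55 for both. All 3 young EC-K4KO libraries lay above both young WT Cre libraries, by 0.125 points on average, while the old EC-K4KO mean lay 0.0568 points below the old WT Cre mean.

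**Figure D1:**
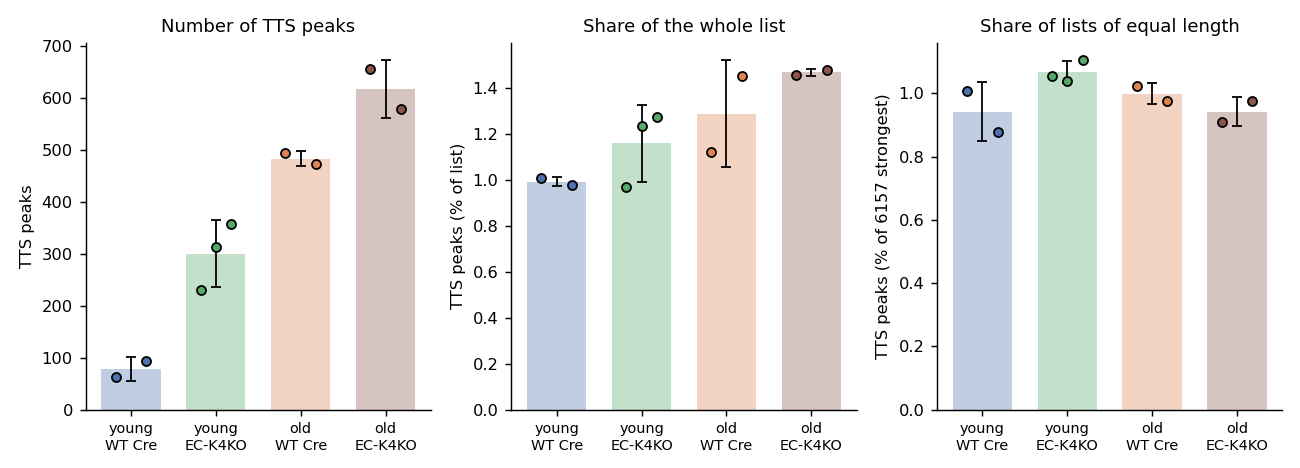
Number of TTS peaks per library (left), their share of the whole list in percent (middle) and their share of the 6157 strongest peaks in percent (right), by group; points are libraries, bars are group means and whiskers 1 SD. Counts climb from 62 in young WT Cre to 656 in old EC-K4KO, whereas the shares at equal length stay between 0.877% and 1.10% in all 9 libraries.

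The annotated ends were checked against RefSeq. A RefSeq transcript was found for the gene named in 3247 of the 3257 annotations, and 3142 of those peaks (96.8%) were centred from 100 bp before to 1000 bp after an end of that gene. The median centre lay 500 bp past the end, with quartiles of 264 and 750 bp. Peak centres were spread over the window and did not gather at the end itself. The bins of 100 bp held from 210 to 354 peaks beyond the end and 142 peaks in the 100 bp before it. A transcript end of GENCODE M21 lay inside the peak for 736 peaks (22.6%), from 12.9% of TTS peaks in young WT Cre 1 to 27.0% in old EC-K4KO 2.

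A part of the TTS peaks lay beside the start of a gene. Of the 3257, 658 (20.2%) were centred within 1000 bp of the nearest transcription start site (TSS), all of them downstream, and 310 of these were centred 101 to 200 bp downstream. The promoter-TSS window of the annotation runs from 1000 bp upstream to 100 bp past a TSS, so the 310 lie just beyond it. A TTS peak cannot be centred in that window, so the lack of upstream centres follows from how the classes are defined. The start belonged to another gene on the same strand for 444 peaks, to the gene that ends there for 173 and to a gene on the opposite strand for 41. For the class as a whole the median distance to the nearest TSS was 6631 bp, and the nearest TSS was that of another gene for 1681 peaks (51.6%).

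**Figure D2:**
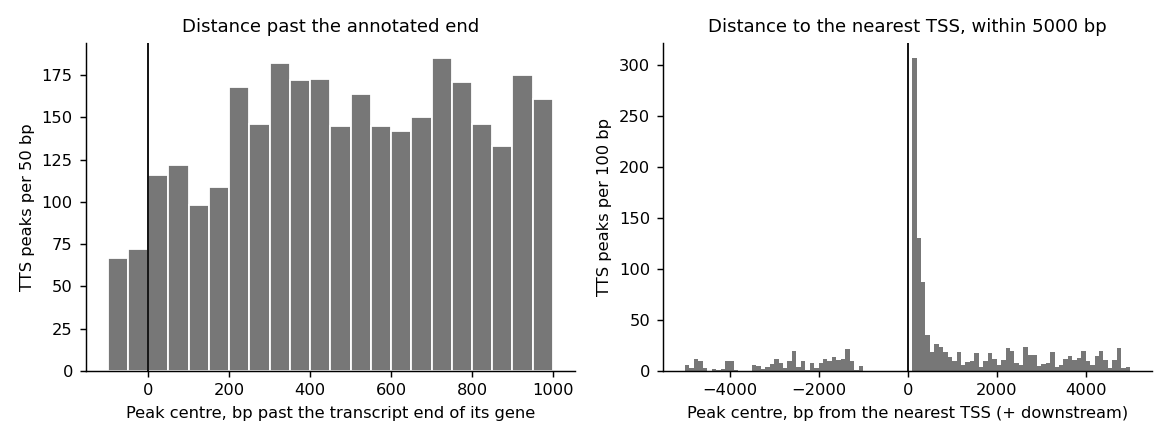
Distance of TTS peak centres past the transcript end of their gene in bp (left, bins of 50 bp) and to the nearest TSS in bp, positive downstream (right, bins of 100 bp, peaks within 5000 bp). Centres fill the window from -100 to 1000 bp around the end. None lies between 1000 bp upstream and 100 bp downstream of a TSS, since the annotation gives that stretch to the promoter-TSS class. Next to it are the 310 centred 101 to 200 bp downstream.

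TTS peaks near a TSS differed from the others in every library. Their median width per library was 414 to 700 bp, against 278 to 373 bp for TTS peaks farther than 1000 bp from a TSS, and their median GC content was 60.3% to 66.3% against 52.0% to 56.7%. They also stood higher in the lists. List position is the percent of a library's list counted from its strongest peak by -log10 p, so that a low value is a strong peak, and its median was 23.6% to 64.6% near a TSS and 46.7% to 68.4% farther away. Near-TSS peaks were 29.0% and 34.0% of the TTS peaks in young WT Cre, 25.1%, 23.6% and 23.2% in young EC-K4KO, 18.9% and 20.3% in old WT Cre, and 15.4% and 17.8% in old EC-K4KO. The share was highest in the shortest lists, and the groups did not overlap. The part of peaks at a TSS also fell outside the TTS class, as counted by other measures. Promoter-TSS peaks were 3414 of the 6157 peaks of young WT Cre 1 and 8620 of the 45026 of old EC-K4KO 1. Intron peaks with a GENCODE TSS inside were 16.9% and 16.2% of intron peaks in young WT Cre. They were 10.4% to 11.0% in young EC-K4KO and 6.51% to 8.91% in the old libraries. By this measure TTS peaks stood at 16.1% and 26.6% in young WT Cre and 20.1% to 21.8% in young EC-K4KO. The values were 16.2% and 17.8% in old WT Cre, and 14.2% and 17.1% in old EC-K4KO. The TTS groups thus overlapped, and the order seen by distance to a TSS was not found.

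The 3257 peaks fell on 1245 genes, of which 1239 matched RefSeq, or 4.73% of the 26180 RefSeq genes with a transcript. Protein-coding genes were 1069 of them, long noncoding RNAs 100 and microRNAs 59. MicroRNA genes are so short that their end and their start lie together, and 166 of their 174 TTS peaks were centred within 1000 bp of a TSS, against 452 of 2819 for protein-coding genes. Nearly all genes had a single region, and 13 had 2 separate TTS regions, among them Edn1, which encodes the vasoconstrictor endothelin-1, and Fas, a death receptor. A promoter-TSS peak in the same library was found for 17.7% and 24.5% of the genes with a TTS peak in young WT Cre, where 12.4% and 16.3% of all genes had one. In the other 7 libraries the values were 27.8% to 48.2%, against 22.1% to 30.8% of all genes.

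Within each library, TTS peaks were weaker than promoter-TSS peaks and stronger than intergenic peaks. The median list position of TTS peaks was 65.6% and 59.9% in young WT Cre, 46.0%, 51.4% and 54.2% in young EC-K4KO, 43.4% and 54.3% in old WT Cre, and 52.1% and 52.9% in old EC-K4KO. Promoter-TSS peaks had medians of 15.4% to 37.7% and intergenic peaks of 58.6% to 71.7%. The difference was 30.9 ± 3.88 points from promoter-TSS peaks (SD, n = 9), 10.2 ± 4.57 points from exon peaks and -12.3 ± 7.13 points from intergenic peaks. Each kept its sign in 9 of 9 libraries, with a two-sided exact permutation p = 0.00391 by flipping signs, the smallest 9 libraries allow, and an adjusted p = 0.00391 over 9 tests.

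Width and GC content placed TTS peaks between the same classes. TTS peaks had a median width of 320 to 416 bp per library, which differed by -156 ± 74.0 bp from promoter-TSS peaks (SD, n = 9), by -143 ± 29.2 bp from exon peaks and by 54.5 ± 25.5 bp from intergenic peaks. Their median GC content was 53.2% to 59.5%, which differed by -9.05 ± 1.61 points from promoter-TSS peaks (SD, n = 9), by -9.07 ± 1.31 points from exon peaks and by 5.41 ± 1.54 points from intergenic peaks. All 6 differences kept their sign in 9 of 9 libraries (two-sided exact permutation p = 0.00391, adjusted p = 0.00391).

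The differences from exon peaks in list position and width, and from intergenic peaks in width, depended on peaks that contain a TSS. A GENCODE TSS lay inside 49.3% to 71.6% of exon peaks per library and inside 14.2% to 26.6% of TTS peaks. With all such peaks removed, TTS peaks stood higher in the list than exon peaks, by -5.60 points (exact permutation p = 0.00391), and the width differences shrank to 1.17 bp from exon peaks (exact permutation p = 0.875) and 11.4 bp from intergenic peaks (exact permutation p = 0.246).

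**Figure D3:**
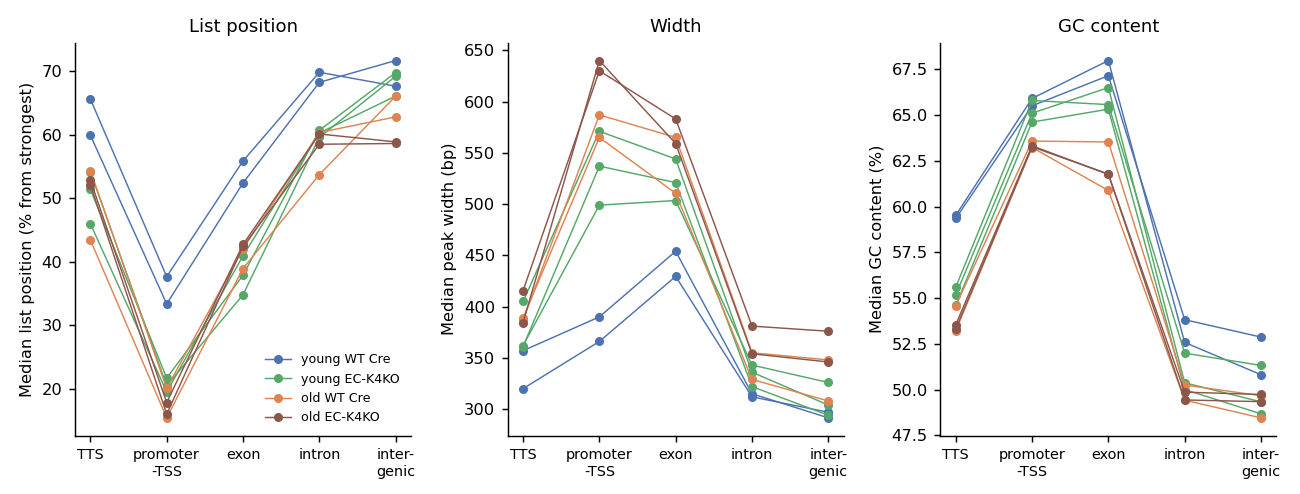
Median list position in percent from the strongest peak (left), median width in bp (middle) and median GC content in percent (right) of 5 annotation classes; each line is 1 library, coloured by group, and the axes do not start at 0. In all 9 libraries the TTS medians lie between those of promoter-TSS and intergenic peaks in all 3 measures.

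Width and list position of TTS peaks did not separate the genotypes beyond the spread. Median widths were 320 and 357 bp in young WT Cre, 362, 361 and 405 bp in young EC-K4KO, 389 and 387 bp in old WT Cre, and 385 and 416 bp in old EC-K4KO. The genotype difference was 24.8 bp (exact permutation p = 0.183, adjusted p = 0.306) and the age difference 36.8 bp (exact permutation p = 0.05, adjusted p = 0.125). For the median list position the differences were -4.31 points for genotype (exact permutation p = 0.333, adjusted p = 0.417) and -5.96 points for age (exact permutation p = 0.267, adjusted p = 0.381). These medians come from lists of unequal length, and the young WT Cre medians lay above all others.

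TTS peaks sharing at least 1 bp were merged into 1252 TTS regions. Most were seen in few libraries. A TTS peak was present in 1 library for 642 regions (51.3%) and in all 9 for 30 (2.40%). With a peak of any class counted, since a shift of the centre can move a peak into another class, the numbers were 542 (43.3%) and 69 (5.51%). Recurrence was lower than for promoter-TSS regions, of which 7.74% had a peak in 1 library and 31.4% in all 9, and higher than for intergenic regions, at 69.5% and 1.56%. Exon regions stood at 29.2% and 13.4%.

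Regions that recurred were stronger, wider and richer in GC, as described by the means of their TTS peaks. The 542 regions with a peak in 1 library had a median list position of 84.5%, a median width of 235 bp and a median GC content of 49.4%, and 7.38% of them lay near a TSS. The 69 regions with a peak in all 9 libraries had medians of 17.1%, 583 bp and 61.3%, and 52.2% lay near a TSS. The 641 regions in between had medians of 56.4%, 366 bp and 53.9%. A region counted as near a TSS when at least 1 of its TTS peaks was, so regions seen in more libraries had more chances to count.

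Among the groups of 2 libraries, replicates shared more TTS regions where the lists were longer. Young EC-K4KO has 3 libraries, so its share is counted by another rule and cannot be placed in that order. Both young WT Cre libraries had a TTS peak in 37 of the 119 regions seen in either (31.1%), and at least 2 young EC-K4KO libraries in 225 of 576 (39.1%), of which 100 were seen in all 3. Both old WT Cre libraries had one in 296 of 669 (44.2%) and both old EC-K4KO libraries in 457 of 777 (58.8%). At least 2 libraries of every group had a TTS peak in 32 regions, and at least 2 of each group but young WT Cre in 137. Young WT Cre lists are the shortest, and 1095 of the 1252 TTS regions (87.5%) had no peak of any class in them. No group reached 2 libraries in 733 regions.

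**Figure D4:**
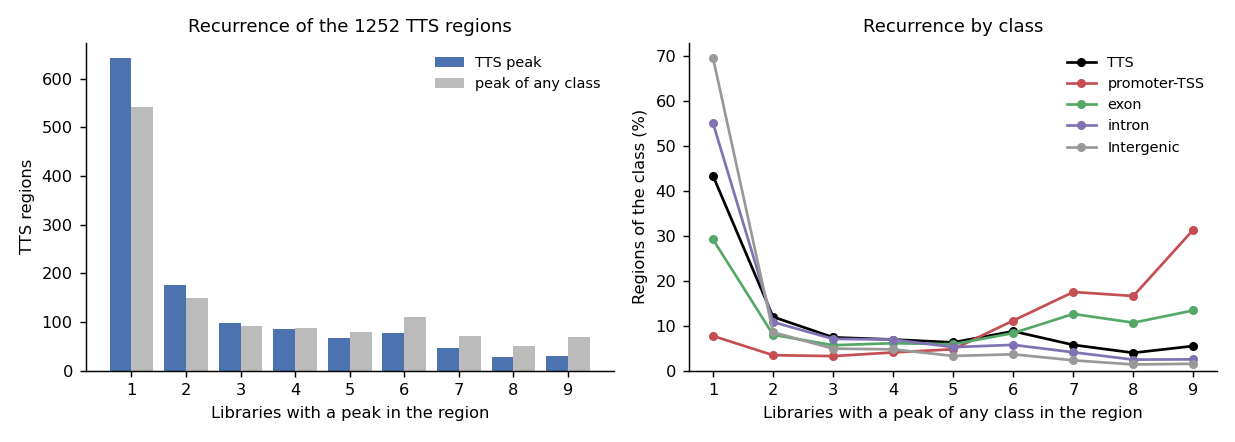
Number of the 1252 TTS regions by how many of 9 libraries have a TTS peak (blue) or a peak of any class (grey) in them (left), and the percent of regions of each class by the number of libraries with a peak of any class (right). TTS regions lie between intergenic regions, of which 69.5% are seen in 1 library, and promoter-TSS regions, of which 31.4% are seen in all 9.

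The 10 regions of best mean list position among those with a TTS peak in all 9 libraries followed the genes Tmem88b, Ctdsp1, Nt5c1b, Slc23a3, Ssrp1, Sec14l2, Mir8114, Mfsd7c, Fam120a and Acvrl1. They include genes with known roles in vessels. Acvrl1 encodes ALK1, an endothelial receptor of the TGF-β and BMP family, and Mfsd7c, also called Flvcr2, encodes a transporter of brain ECs. Mean list positions ran from 3.62% at Tmem88b to 10.3% at Acvrl1.

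Tmem88b, a transmembrane protein gene, had the strongest mean position, at chr4:155780873-155781451 (GRCm38), with a centre 459 bp past its end and outside any GENCODE gene. Its TTS peak stood at 12% and 5.47% of the list in young WT Cre, 3.30%, 2.85% and 2.68% in young EC-K4KO, 1.17% and 2.16% in old WT Cre, and 1.40% and 1.5% in old EC-K4KO. A percent of the list depends on its length, so the rank, counted from the strongest peak, is given beside it. By rank the Tmem88b peak was 740 and 525 in young WT Cre, 722 to 787 in young EC-K4KO and 515 to 703 in the old libraries, and the groups overlapped. Its fold over the local background was 6.16 and 6.86 in young WT Cre, 6.17 in young EC-K4KO 1 and 9.39 to 10.7 in the other 6 libraries.

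Ctdsp1 encodes a phosphatase of the RNA polymerase II tail and hosts the microRNA gene Mir26b in an intron. Its region at chr1:74397087-74397969 had list positions of 8.27% and 5.69% in young WT Cre, 3.20%, 3.08% and 4.56% in young EC-K4KO, 2.09% and 2.26% in old WT Cre, and 3.47% and 3.62% in old EC-K4KO. By rank the order turned, with 509 and 546 in young WT Cre and 734 to 1561 in the other 7 libraries. The end of Slc11a1, upstream of Ctdsp1 at chr1:74386688-74387296, had a TTS peak in all 9 libraries too, at a mean position of 10.3%.

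Acvrl1 had a TTS peak 316 bp past its end, at chr15:101145241-101145977, outside any GENCODE gene. The peak stood at 14.6% and 7.74% in young WT Cre, 13.2%, 11.9% and 19.8% in young EC-K4KO, 3.42% and 5.90% in old WT Cre, and 6.12% and 10% in old EC-K4KO. The young groups overlapped in percent. By rank the peak was 900 and 743 in young WT Cre, 3153, 3015 and 5528 in young EC-K4KO, 1499 and 1922 in old WT Cre, and 2755 and 3906 in old EC-K4KO, so that WT Cre stood ahead of EC-K4KO within each age without overlap. This order by rank is given without its share over all regions. By fold over the local background the genotypes overlapped at both ages. The folds were 5.90 and 6.58 in young WT Cre and 4.40, 7.40 and 5.92 in young EC-K4KO. They were 8.57 and 8.17 in old WT Cre and 9.13 and 7.75 in old EC-K4KO. At Mfsd7c, chr12:85813585-85814166, the positions were 25.5% and 15.3% in young WT Cre, 9.76%, 8.87% and 12.5% in young EC-K4KO, 2.92% and 4.49% in old WT Cre, and 2.34% and 4.79% in old EC-K4KO. Its ranks were 1571 and 1471 in young WT Cre, 2244 to 3497 in young EC-K4KO and 1052 to 1871 in the old libraries, so the young WT Cre libraries stood last in percent and among the old ones by rank.

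Other regions of this set lie where a second gene begins. The Nt5c1b region, chr12:10390619-10391514, was centred 880 bp past the end of this nucleotidase gene and 274 bp downstream of the TSS of Rdh14, a retinol dehydrogenase gene, in its coding exon. The Mir8114 region, chr1:153899594-153900591, was centred 174 bp downstream of the TSS of Glul, which encodes glutamine synthetase. Both are TTS peaks by the annotation and lie beside a promoter by distance. The Slc23a3 region lay in an intron of Nhej1, a gene of DNA end joining, and those of Ssrp1, a subunit of the histone chaperone FACT, Sec14l2, a lipid transfer protein gene, and Fam120a lay outside any gene.

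Among regions present in 8 libraries, named after their values were seen, were the ends of Nos3 and Fas. Nos3 encodes endothelial nitric oxide synthase, and its region at chr5:24384498-24384843 overlaps an exon of Atg9b on the opposite strand. No TTS peak was called in young WT Cre 1, and the position was 33.9% in young WT Cre 2, 29.5%, 26.4% and 15.0% in young EC-K4KO, 8.30% and 11.0% in old WT Cre, and 14.6% and 13.5% in old EC-K4KO. By rank young WT Cre 2 stood first at 3254, and young EC-K4KO 3 at 4193 lay among the old libraries, at 3576 to 6568, so an order by age was seen in percent and not by rank. Junb, an AP-1 subunit gene, had a TTS peak in all 9 libraries, at 48.9% and 78.7% in young WT Cre, 10.3%, 19.7% and 18.4% in young EC-K4KO, 26.0% and 39.2% in old WT Cre, and 20.9% and 32.2% in old EC-K4KO. Its ranks were 2457 to 7550 in the young libraries and 9402 to 12754 in the old ones, while in percent the ages overlapped. A rank cannot exceed the length of its list, and the young WT Cre lists held only 6157 and 9598 peaks. The order by rank is therefore no separate result, and its share over all regions is not given. By fold the ages overlapped, at 2.57 to 3.49 in the young libraries and 2.24 to 2.74 in the old ones.

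TTS regions with a peak in at least 2 libraries of a group and no peak of any class in either young WT Cre library numbered 127 for young EC-K4KO, 208 for old WT Cre and 366 for old EC-K4KO. These were 10.1%, 16.6% and 29.2% of the 1252 TTS regions. The same rule applied to the 97647 regions of all 5 classes gave 9.25%, 15.7% and 24.3%, so the first 2 TTS shares lay near this background and the third, that of old EC-K4KO, lay higher, a difference for which no test was made. The comparisons share the young WT Cre libraries, whose lists are the shortest. Among exon regions the shares were 9.46%, 10.7% and 17.4%, and among promoter-TSS regions 21.7%, 25.9% and 29.5%.

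In lists cut to equal length the same rule found 7, 10 and 8 of 137 TTS regions (5.11%, 7.30% and 5.84%), against 5.67%, 6.15% and 7.09% over all 11518 regions. Without young EC-K4KO replicate 2 or 3 the count of 127 fell to 46 or 37. With 1 library of old WT Cre left out the other alone decided presence, and the count was 374 without replicate 1 and 394 without replicate 2, as it was 556 for old EC-K4KO without replicate 2. In the whole lists 0 TTS regions had a TTS peak in both young WT Cre libraries and no peak of any class in another group, against 1, 1 and 4 of the 97647 regions of all classes. In the lists of equal length these were 2, 2 and 4 of 137 TTS regions (1.46%, 1.46% and 2.92%), against 1.40%, 3.30% and 3.97% over all 11518 regions, which is near or below the background.

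The strongest regions of this kind followed Sfn, Ube3b, Skap1, Hspb8, Mir1956, Slc25a44 and Snord104. By the rule each had to have a TTS peak in every library of at least 1 group, so their absence from young WT Cre is how they were chosen. Each was also among the 4 of best mean list position in such a group, so a strong place there is part of the choice. Skap1 was chosen through the old groups only, so its stronger place in old than in young EC-K4KO libraries is no separate result. Exactly the 7 libraries outside young WT Cre had a TTS peak in 32 regions, among them 5 of these 7. Lack of a young WT Cre peak was common, since 1095 of the 1252 TTS regions (87.5%) had no peak of any class there. The share of regions of all classes with this pattern is not given. Sfn encodes 14-3-3σ, a cell cycle regulator under p53, and its region at chr4:133599573-133600169 was centred 724 bp past its end and outside any GENCODE gene. Its peak stood at 28.9%, 14.9% and 15.3% of the list in young EC-K4KO, 4.98% and 6.89% in old WT Cre, and 8.19% and 6.28% in old EC-K4KO.

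At Sfn the ranks were 3762 to 6889 in young EC-K4KO and 2186 to 3687 in the old libraries, which did not overlap on either scale. Sfn was chosen through young EC-K4KO and both old groups, so its strong place in the old lists is part of the choice. This order is no separate result, and its share over all regions is not given. Ube3b encodes a ubiquitin ligase, and its region at chr5:114421733-114422360 had positions of 25.5%, 19.6% and 15.4% in young EC-K4KO, 12.9% and 13.5% in old WT Cre, and 8.46% and 11.9% in old EC-K4KO. By rank these overlapped, at 4313 to 6072 in young EC-K4KO and 3811 to 5650 in the old libraries. Skap1 encodes an adaptor of T cell adhesion, and its region at chr11:96760125-96760568 had positions of 30.4%, 33.8% and 24.0% in young EC-K4KO, 8.90% and 13.6% in old WT Cre, and 8.78% and 10.3% in old EC-K4KO, with ranks of 6730 to 8549 in young EC-K4KO and 3906 to 4429 in the old libraries. At Hspb8, a small heat shock protein gene, chr5:116407941-116408333, the groups overlapped, with 34.1%, 19.8% and 19.2% in young EC-K4KO, 19.4% and 23.6% in old WT Cre, and 18.8% and 18.7% in old EC-K4KO.

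The other 3 regions lay close to a TSS. The Slc25a44 region was centred 174 bp downstream of the TSS of Pmf1, and the Mir1956 region 395 bp from that of the microRNA itself, in an exon of Eif4e, which encodes a cap-binding translation factor. The region of Snord104, a small nucleolar RNA gene that guides RNA methylation, had a TTS peak in 4 libraries and a promoter-TSS peak in the other 3 outside young WT Cre. Its centre thus crossed the border between both classes.

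**Figure D5:**
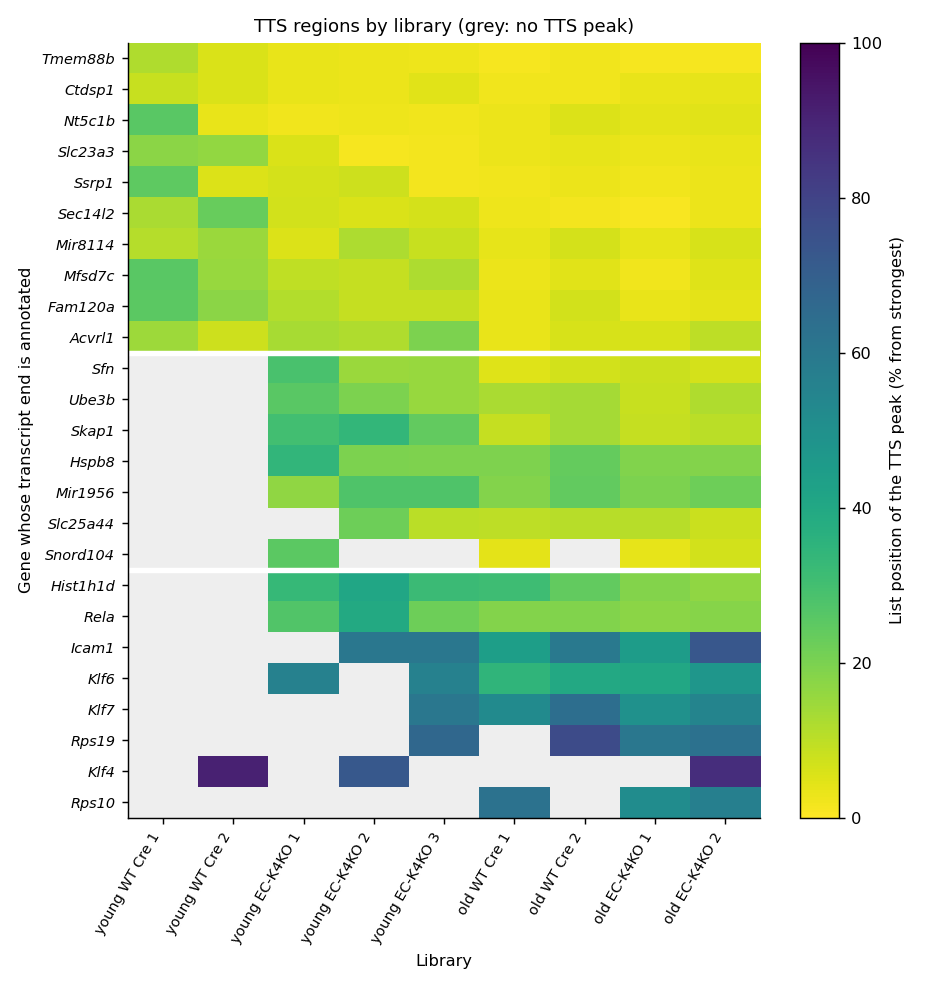
List position of the TTS peak in percent from the strongest (colour, yellow is strong; grey is no TTS peak) for 10 regions present in all 9 libraries (top), 7 regions with no peak in young WT Cre (middle) and 8 genes of the lists with a TTS peak in at least 3 libraries (bottom), by library. Percents come from lists of 6157 to 45026 peaks and do not order the groups by strength, as the ranks of Ctdsp1 show (509 and 546 in young WT Cre, 734 to 1561 elsewhere). In the bottom block 7 of 8 genes have no TTS peak in young WT Cre, beside 345 of the 434 TTS regions seen in at least 3 libraries (79.5%).

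The widest regions among those seen in at least 5 libraries followed Bad, Mir5130 and Midn. Bad encodes a promoter of cell death of the BCL2 family, and its TTS peak was 597 bp wide in young WT Cre 1, 1658 and 1629 bp in old WT Cre, and 1678 and 1660 bp in old EC-K4KO. In the 3 young EC-K4KO libraries the peak there was an exon peak of 390 to 895 bp. Midn had a TTS peak of 213 bp in young WT Cre 2 and of 1750 to 1891 bp in 4 other libraries, and peaks of 2710 and 2757 bp in the remaining old libraries were classed as intron peaks. Intron peaks of 857 bp in young WT Cre 1 and 1573 bp in young EC-K4KO 1 also overlapped the region. Young WT Cre 2 had an intron peak of 523 bp there beside its TTS peak.

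The gene lists are read beside the 4.73% of all RefSeq genes with a TTS peak in at least 1 library, and no difference from it was tested. None of the 12 endothelial markers had one in any library, nor did any of the 8 pericyte and mural, 6 microglia, 6 astrocyte, 6 oligodendrocyte or 6 erythroid genes, and 1 of 6 neuron genes had one (Tubb3, a neuronal tubulin, in 1 library). Among 18 barrier and transport genes 2 had one (11.1%). Slc2a1, the glucose transporter of the blood-brain barrier, had a TTS peak in 2 libraries at a best position of 53.1%, and Lrp1, a clearance receptor, in 1.

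Of 14 genes of leukocyte adhesion and inflammation, Rela and Icam1 had TTS peaks (14.3%). Rela encodes the p65 subunit of NF-κB, and its peak, in 7 libraries, stood at 27.3%, 39.1% and 22.2% in young EC-K4KO, 18.5% and 18.8% in old WT Cre, and 17.4% and 18.2% in old EC-K4KO, with no peak of any class in young WT Cre. The old and young EC-K4KO libraries did not overlap in percent, and by rank they did, at 6125 to 8126 and 6204 to 9890. Icam1 encodes the adhesion molecule that binds leukocytes, and its peak, in 6 libraries, was centred a median 243 bp downstream of the TSS of the adjoining Icam4, at positions of 43.9% to 72.8%. Of 15 stress and senescence genes 2 had one (13.3%). Cdkn1a, the p21 gene, had a TTS peak in 2 libraries at 82.3% at best, and Cdkn2a, the p16 gene, in 1.

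KLF factor genes had TTS peaks in 4 of 17 cases (23.5%). Klf6 had one in 6 libraries at 34.4% to 56.2%, and Klf7 in 5 libraries at 49.3% to 63.7%, with none of either in young WT Cre. Klf16 had one in 1 library. At Klf4, the targeted gene, a TTS peak was called in young WT Cre 2 at 90.6%, in young EC-K4KO 2 at 72.4% and in old EC-K4KO 2 at 86.7%, with folds of 3.46, 3.46 and 2.72. These peaks were centred 688 to 942 bp past the end of the gene, outside the transcribed model, and so do not check the deletion. A peak of any class overlapped this region in 7 libraries.

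Histone and ribosomal protein genes end differently, since replication-dependent histone transcripts end without a poly(A) tail. A TTS peak was found for 3 of 37 replication-dependent histone genes (8.11%) and 4 of 84 cytosolic ribosomal protein genes (4.76%), while 27 and 71 of them had a promoter-TSS peak in at least 1 library. Hist1h1d, a linker histone gene, had a TTS peak in each of the 7 libraries outside young WT Cre, at 33.2%, 40.9% and 31.7% in young EC-K4KO, 30.9% and 24.0% in old WT Cre, and 18.5% and 16.5% in old EC-K4KO. Rps19 had one in 4 libraries and Rps10 in 3, and the other 4 members with a peak had it in 1 or 2.

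The 300 bp around the centre of TTS peaks held AATAAA on either strand in 21.7% of peaks, KLF letters in 16.5%, ETS letters in 1.29%, AP-1 letters in 11.1% and CTCF letters in 3.13%. Over all 253457 peaks the shares were 17.3%, 14.9%, 3.01%, 11.3% and 1.71%. AATAAA was about as frequent in intron (22.1%) and intergenic peaks (22.6%) as in TTS peaks, and less frequent in promoter-TSS peaks (6.45%). TTS peaks within 1000 bp of a TSS held it in 7.29%, and those farther away in 25.4%. CTCF letters were found in 3.66% of the latter and 1.06% of the former. Motif shares are descriptions, and peaks of one region in several libraries share their sequence.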

How the data were processed

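Omni-ATAC-seq of brain ECs was analysed in 9 libraries of 4 groups, as the labels assign them. Per the study's methods, adapters were removed with TrimGalore, pairs were aligned to mm10 (GRCm38) with Bowtie2, duplicates and pairs of low mapping quality were dropped, and MACS2 called broad peaks, separately for every library as the peak names show. Each deposited list holds a score that equals the -log10 q multiplied by 10, a fold (the ratio of signal to a background estimated around the peak), a -log10 p and a -log10 q, which MACS2 averages along a broad peak. The annotation gives a class set by the peak centre, a gene and the distance to the nearest TSS in bp. Its form is that of HOMER, although the study's methods name ChIPseeker. These values are not normalised between libraries.

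Peaks were ranked within each list by -log10 p, with ties averaged. Lists of equal length hold the 6157 strongest peaks of each library. Genotype within age and age within genotype were tested by exact two-sided permutation within strata (60 arrangements), and classes by exact sign flips over the 9 libraries. BH adjustment covered 10 and 9 tests, with a threshold of 0.05. TTS peaks sharing at least 1 bp formed a region, and a group had it when at least 2 libraries did. All 253457 peaks lay within the chromosome ends. Transcript ends came from RefSeq and GENCODE M21 (basic set), and GC content and motifs from RefSeq's GRCm38 sequence. Python 3.11.15, numpy 2.4.6, pandas 2.3.3 and matplotlib 3.10.9 were used, and tests, merging and calling were checked on simulated data. The members, gene lists and tests were chosen with earlier results of these data known.

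Named regions are the 10 of best mean list position with a TTS peak in all 9 libraries, the 4 best per group that every library of the group has and young WT Cre lacks, up to 4 with the reverse pattern (none was found), regions of the endothelial and barrier lists in at least 3 libraries (none was found), the 3 widest seen in at least 5 libraries, and the 3 genes with most regions, for which 13 genes were tied at 2. Others are named as chosen after their values were seen, or as members of the lists. Alternatives were q limits of 0.05 and 0.01, peaks over a GENCODE transcript end, another denominator, ranking by fold, 3000 strongest peaks, an overlap of 50% of the shorter peak, a replicate block and leaving out each library.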

Additional observations from a re-analysis of the deposited data

How the results depend on the processing

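Calls in this part rest on the unadjusted exact permutation p, with a threshold of 0.05. Replicate numbers did not pair the libraries: deviations of same-numbered libraries from their group means over 1252 TTS regions had correlations of -0.0183 to 0.0494. With the replicate block, the number of TTS peaks differed by 164.0 for genotype and 375 for age and the share by 0.330 points for age, each with an exact permutation p = 0.125, the smallest that 4 pairs allow. With peaks of q under 0.01, the share differed by 0.218 points and the list position by 0.0497 for genotype and 2.47 for age, and the position of TTS peaks against exon peaks by 5.91. With TTS redefined as a peak over a GENCODE transcript end, the genotype difference was 0.235 points in share and 58.0 bp in width, and the age difference 78.3 bp in width and 0.225 points in share at equal list length. Without promoter-TSS peaks in the denominator the share differed by -0.141 points for genotype and -0.0691 for age. Among the 3000 strongest peaks it differed by -0.0111 and 0.0278 points. Ranked by fold, the age difference in list position was -10.6 points. Of TTS peaks centred over 1000 bp from a TSS, an alternative chosen after seeing the data, the share at equal list length differed by -0.0460 points for genotype. Without peaks that hold a TSS, TTS peaks differed from exon peaks by -5.60 points in position and 1.17 bp in width, and from intergenic peaks by 11.4 bp. In lists of equal length the TTS regions absent from young WT Cre numbered 7 for young EC-K4KO, 10 for old WT Cre and 8 for old EC-K4KO. The cause of these changes was not tested.

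Leaving out 1 library at a time, the number of TTS peaks differed by 159 to 198 for genotype and 341 to 380 for age, and the share by 0.219 to 0.384 points for age. Without any one of the young EC-K4KO libraries these 3 differences had an exact permutation p = 0.0556, the smallest then possible, and the share also missed the threshold without a young WT Cre library (p = 0.1) or an old EC-K4KO library (p = 0.0833). Width differed by 15.5 to 34.0 bp for genotype and 27.5 to 46.0 bp for age, and list position by -7.04 to -1.59 points for genotype. Without old EC-K4KO replicate 1 both width differences passed the threshold, as did the list position for genotype without old WT Cre replicate 1. TTS regions absent from young WT Cre numbered 37 to 164 for young EC-K4KO, 219 to 394 for old WT Cre and 378 to 556 for old EC-K4KO. Read totals were not analysed, so the part of sequencing depth in these values was not tested.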
